A study of Mus musculus with 96 samples.

Results

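Sleep deprivation was examined in the cerebellum with 23 of the 96 libraries of the series, which are all cerebellum columns of the series count table except control replicate 1 of circadian time (CT) 8. The mice were male wild-type (WT) C57BL/6 animals, 6 to 8 weeks old, and no group carried a transgene. In the sleep deprivation group (SD, 12 libraries) the mice were kept awake for 10 h of the resting phase by a drum that turned slowly and held food and water, and control mice (CON, 11 libraries) were left undisturbed. Tissue was then taken at 6 circadian times, every 4 h from CT4 to CT24, with 2 libraries for each condition and time and 1 for CON at CT8. The CT was taken from the sample titles, and the interval between the drum and each sampling time was not given in the sources used here. The study describes its replicates as biological, without saying how many animals each library holds, and the p-values measure the spread between these libraries.

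The cerebellum holds the densest packing of neurons in the brain, mostly granule cells, whose output is read by Purkinje cells wrapped in the processes of Bergmann glia. It carries a circadian clock of its own, in which BMAL1 and CLOCK switch on the Per, Cry and Nr1d genes and the products of these genes switch the activators off. Waking beyond the usual time is known to raise activity-driven and glucocorticoid-driven transcripts in the brain, and major histocompatibility complex (MHC) class I molecules, which show peptides to T cells and are induced by interferon, are expressed by neurons and glia at low levels.

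Values are given in CPM, the count of a gene scaled to the total count of its library, which was 26 to 30.9 M (M for mega), so that 1 CPM rested on about 26 to 30.9 counts. Depth did not differ detectably between conditions (28.3 ± 1.24 M in CON and 28.4 ± 1.33 M in SD, mean and standard deviation over 11 and 12 libraries, exact two-sided permutation p = 0.890 over 23328 exchanges within time points, adjusted over 4 measures 0.890). Counts of antisense genes relative to their coding partners were 4.73% to 5.78% in the 23 libraries and 22.2% in the library left out, which had a depth of 24.8 M. The tissue label was met by its markers, with the granule cell receptor subunit Gabra6 at 519.0 to 800.3 CPM and the Purkinje cell gene Pcp2 at 39.6 to 72.3 CPM, although the granule cell genes Neurod1 and Cbln3 were under 0.2 CPM in every library. The forebrain gene Emx1 was also under 0.2 CPM in every library. Other markers of the forebrain list are expressed here, and the list summed to 573.3 to 713.4 CPM in CON and 494.8 to 687.3 CPM in SD. The 8 hepatocyte and kidney markers summed to 0.758 to 6.91 CPM. Why Neurod1 and Cbln3 had so few counts was not tested. A value under 0.2 CPM here therefore does not show that a gene is not expressed.

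A neighbouring tissue entered some libraries and not others. Transthyretin (Ttr), the carrier protein that choroid plexus epithelium secretes into the cerebrospinal fluid, had a lowest value of 0.238, a median of 4.38 and a highest of 1703.2 CPM in CON, and 0.224, 638.4 and 2770.1 CPM in SD. The 15 choroid plexus markers together reached 91.0, 137.7 and 3334.9 CPM in CON and 90.3, 1393.8 and 5749.9 CPM in SD, with Folr1 under 0.2 CPM in every library. Both conditions held libraries with and without this RNA, but not at every time. At CT4 the CON libraries had 0.585 and 1.31 CPM of Ttr against 2770.1 and 1337.7 CPM in SD, at CT24 they had 1.35 and 4.38 against 767.6 and 1003.8, and at CT20 the order was opposite, with 1155.8 and 443.3 CPM in CON against 82.7 and 1.92 in SD. Over the 1000 most variable genes, the first principal component took 42.6% of the variance and followed the log2 marker sum over the 23 libraries, which share these genes (Pearson 0.96, Spearman 0.94 in size, given as a description). The gene tests in the cerebellum and the comparison with the forebrain were therefore also fitted with the log2 marker sum as a covariate. It is called the choroid plexus covariate and was added after the data had been seen. The comparison with the liver was not fitted with it.

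**Figure D1:**
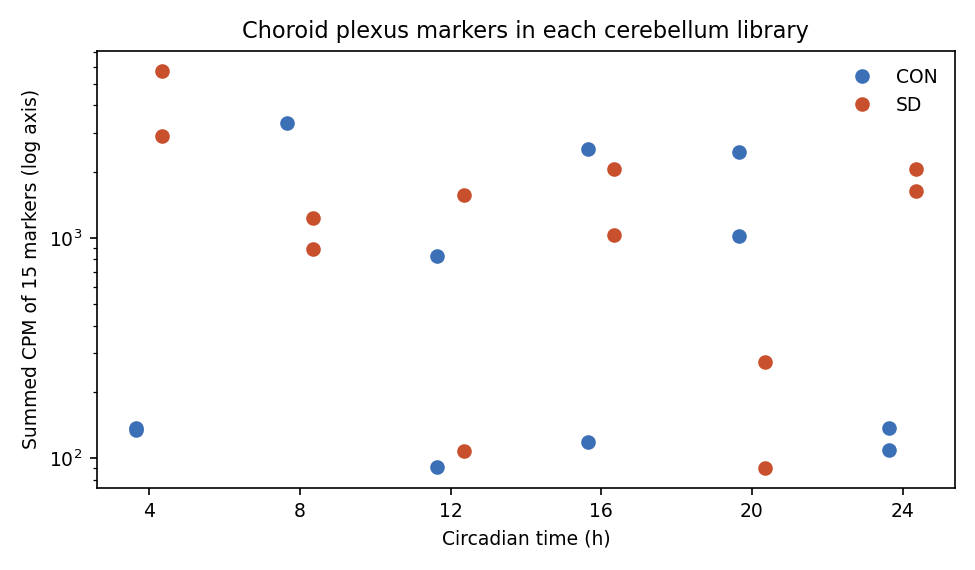
Summed CPM of 15 choroid plexus markers (log axis) in each of the 23 cerebellum libraries against circadian time in h, with CON in blue and SD in red. The marker sum exceeded 800 CPM in 5 CON and 9 SD libraries, and at CT4 and CT24 every SD library lay above every CON library.

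To ask which genes SD altered across the day as a whole, condition was fitted with time point as an additive factor. No gene of 22010 passed an adjusted p of 0.05 in the edgeR quasi-likelihood test (0%), and 993 genes (4.51%) had an unadjusted p under 0.05, of which 488 (2.22%) were higher and 505 (2.29%) lower in SD. For no gene were the 11 CON and 12 SD libraries fully apart (0 of 22010, 0%). The genes nearest the threshold were the MHC class I transactivator Nlrc5 and the class I heavy chain H2-D1, both lower in SD, and the astrocyte genes Fam107a and Etnppl, both higher, each with an adjusted p of 0.0527. The same 4 genes passed when DESeq2 median-ratio scaling replaced TMM scaling (4 of 22010, 0.0182%, adjusted p = 0.0427 each) and when low genes were filtered over 11 libraries (0.0201%, adjusted p = 0.0462 each). DESeq2 called 14 genes (0.0636%), which included these 4, and the fit with the choroid plexus covariate called 17 (0.0772%), of which 12 were higher and 5 lower, with 1775 (8.06%) at an unadjusted p under 0.05.

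The lower side of the comparison was led by genes of antigen presentation. Nlrc5 (chromosome 8, 94434356 to 94527272 on GRCm38, with another gene overlapping on the other strand) encodes a NOD-like receptor protein that switches on MHC class I genes. Its lowest, median and highest values were 0.841, 2.24 and 2.71 CPM in CON and 0.73, 1.13 and 1.47 CPM in SD. All 12 SD libraries lay below the CON median, and both SD libraries lay below CON at each time except CT4, where CON had 0.841 and 1.31 CPM and SD 1.01 and 0.808. The log2 fold change was -0.83 ± 0.14 (SE), and -0.84 with the choroid plexus covariate (edgeR adjusted p = 0.0146).

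The classical heavy chain H2-D1 (chromosome 17, 35262730 to 35267499) had 56.0, 66.8 and 76.4 CPM in CON and 43.7, 55.9 and 64.6 CPM in SD, a log2 fold change of -0.27 ± 0.05. All 12 SD libraries again lay below the CON median, and within time points both SD libraries were below CON except at CT12, where they had 64.6 and 48.5 CPM against 64.2 and 68.8. H2-K1 (chromosome 17, 33996017 to 34000347), the other classical heavy chain, had 11.3, 18.3 and 24.9 CPM in CON and 11, 12.4 and 18.0 CPM in SD. Its log2 fold change was -0.41 ± 0.10 (adjusted p = 0.488), and -0.49 with the choroid plexus covariate (adjusted p = 0.0162). All 12 SD libraries lay below the CON median, but at CT4 the CON libraries, with 11.3 and 12 CPM, were below both SD libraries at 12.1.

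Of the 15 MHC class I genes listed, 14 could be tested and 9 had an unadjusted p under 0.05, all 9 lower in SD (64.3%, beside 2.29% of all genes), while 0 passed after adjustment. The median log2 fold change of the 14 was -0.32, beside 0.00 over all genes. This list and those below were chosen with earlier results of these data known, so the shares are a description. Besides the 3 genes above, the 9 held the nonclassical chains H2-Q7 (-0.86 ± 0.17), H2-Q4 (-0.58 ± 0.13), H2-Q6 (-0.89 ± 0.24) and H2-T23 (-0.26 ± 0.09), the peptide transporter subunit Tap1 (-0.38 ± 0.14) and the immunoproteasome subunit Psmb9 (-0.63 ± 0.23). H2-T22 had 0.20 ± 0.24, the transporter subunit Tap2 -0.07 ± 0.09 and the loading chaperone Tapbp -0.04 ± 0.07. The class I heavy chains are near-identical copies, and reads that map to several of them were removed upstream, so the values of single H2-Q and H2-T genes are uncertain. Class II genes, which mark professional antigen-presenting cells, had a median of -0.23 over 6 tested genes with 0 at an unadjusted p under 0.05, and their transactivator Ciita had 0.14 ± 0.09. Fitted with the choroid plexus covariate, 4 of the 6 were lower at that level (66.7%, beside 3.23% of all genes, median -0.36), and in the CT8 to CT20 libraries with Ttr over 50 CPM 2 of 6 were (33.3%, beside 2.62%, median -0.49). Those libraries were not matched for choroid plexus RNA, whose markers were lower in SD (median -1.04, 12 of 14 at that level).

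Interferon-induced genes were the next group on the lower side. The guanylate-binding proteins, large GTPases that attack vacuoles of intracellular pathogens, gave 3 of the 12 named genes. Gbp4 (chromosome 5, 105115767 to 105139586) had 3.29, 5.66 and 8.88 CPM in CON and 1.71, 3.13 and 4.68 CPM in SD, a log2 fold change of -0.89 ± 0.17 (adjusted p = 0.126). Gbp5 (chromosome 3, 142493978 to 142522344) had 1.85, 3.21 and 6.14 CPM in CON and 1.64, 2.02 and 2.63 CPM in SD, a log2 fold change of -0.67 ± 0.15 (adjusted p = 0.311). For Gbp3 (chromosome 3, 142560026 to 142573209) the values were 2.05, 3.74 and 5.01 CPM and 1.74, 2.39 and 3.30 CPM, with -0.48 ± 0.11 (adjusted p = 0.438). In all 3 genes the 12 SD libraries lay below the CON median. Gbp4 passed in DESeq2 (adjusted p = 0.000335) and in edgeR with the choroid plexus covariate (adjusted p = 0.0146). Gbp5 passed in DESeq2 (adjusted p = 0.0207) but not in edgeR with the covariate (adjusted p = 0.0514). The Gbp genes are paralogs in clusters, so reads shared between them were lost upstream.

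Over the interferon list, 30 of 36 genes could be tested, and 11 had an unadjusted p under 0.05, all 11 lower (36.7%, beside 2.29% of all genes). The median log2 fold change was -0.21 and the range -0.89 to 0.05. The immunity-related GTPases Iigp1 (-0.78 ± 0.20), Irgm2 (-0.83 ± 0.28), Irgm1 (-0.30 ± 0.11) and Igtp (-0.36 ± 0.15) were among the 11, as were the antiviral gene Oasl2 (-0.43 ± 0.13) and the interferon regulatory factor Irf7 (-0.16 ± 0.07). Stat2, which carries the interferon signal to the nucleus, had -0.07 ± 0.04 and did not reach an unadjusted p under 0.05. Without the CT4 libraries 18 of the 30 were lower at that level (60%, beside 2.60% of all genes), and with the choroid plexus covariate 15 were (50%, beside 3.23%). Restricted to the libraries of CT8 to CT20 with Ttr over 50 CPM, the counts were 10 of 30 interferon and 9 of 14 class I genes, beside 2.62% of all genes. In those libraries 12 of 14 choroid plexus markers were lower in SD as well (85.7%, median -1.04). Their part in these counts was not tested.

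Microglia are a main source of interferon-induced transcripts in brain tissue, so their markers are given beside these lists. All 10 microglia markers had a log2 fold change below 0, with a median of -0.13 and a range of -0.16 to -0.04. Of these 1, the fractalkine receptor Cx3cr1 (-0.12 ± 0.06), had an unadjusted p under 0.05 (10%, beside 2.29% of all genes). Their summed level was 78.7 to 107.0 CPM in CON and 70.1 to 116.2 CPM in SD, and none was at 0. Once the choroid plexus covariate was added, 6 of the 10 were lower at an unadjusted p under 0.05 (60%, beside 3.23% of all genes), with a median of -0.19. In bulk tissue fewer cells of a type and less RNA per cell cannot be told apart, and the part of microglia in the lower class I and interferon levels was not tested. Other leukocyte markers had a median of 0.02 over 7 tested genes and 0 at an unadjusted p under 0.05.

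The promoters of these genes are shown because interferon acts through a short repeated element, the interferon-stimulated response element. Its core, 2 copies of GAAA set 2 bases apart, was searched on both strands in the 250 bases before each RefSeq start (GRCm38.p6), where it occurred in 936 of 27025 genes (3.46%). Of the 30 tested interferon genes 22 had a promoter in the table and 12 held the core (54.5%), which is 7 of the 9 with an unadjusted p under 0.05 and 5 of the other 13. Among class I genes 2 of 12 held it. The stretches of Gbp5 (chr3:142496684-142496933, plus strand), Gbp2 (chr3:142620413-142620662, plus strand), Gbp3 (chr3:142559794-142560043, plus strand, with 2 overlapping copies), H2-T23 (chr17:36032702-36032951, minus strand) and H2-D1 (chr17:35262844-35263093, plus strand) follow 5′ to 3′, with copies of the core, here all as its reverse complement, in capitals. The copies began 165 bases before the start in Gbp5, 59 in Gbp2, 45 and 39 in Gbp3 and 124 in H2-T23, and H2-D1 held no exact copy in this window. Variants of the core were not searched, so a gene without an exact copy can still hold an element of this kind.
Gbp5: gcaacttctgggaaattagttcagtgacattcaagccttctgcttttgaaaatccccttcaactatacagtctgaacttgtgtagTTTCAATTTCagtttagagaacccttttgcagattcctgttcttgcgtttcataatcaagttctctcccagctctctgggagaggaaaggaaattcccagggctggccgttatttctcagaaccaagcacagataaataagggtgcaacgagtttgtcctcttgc
Gbp2: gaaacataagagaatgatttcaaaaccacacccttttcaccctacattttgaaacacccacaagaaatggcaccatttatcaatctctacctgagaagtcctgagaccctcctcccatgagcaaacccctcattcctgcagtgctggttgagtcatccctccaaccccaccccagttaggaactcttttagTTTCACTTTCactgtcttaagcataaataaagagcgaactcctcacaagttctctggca
Gbp3: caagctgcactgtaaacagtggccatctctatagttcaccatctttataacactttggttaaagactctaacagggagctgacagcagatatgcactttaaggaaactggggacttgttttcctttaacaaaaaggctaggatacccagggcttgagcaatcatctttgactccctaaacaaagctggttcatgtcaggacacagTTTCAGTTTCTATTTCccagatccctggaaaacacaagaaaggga
H2-T23: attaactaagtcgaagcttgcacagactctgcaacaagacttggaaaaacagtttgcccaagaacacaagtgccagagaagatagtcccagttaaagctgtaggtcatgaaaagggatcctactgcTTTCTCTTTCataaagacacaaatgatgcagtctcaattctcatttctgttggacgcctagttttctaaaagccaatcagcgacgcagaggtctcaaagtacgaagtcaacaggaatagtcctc
H2-D1: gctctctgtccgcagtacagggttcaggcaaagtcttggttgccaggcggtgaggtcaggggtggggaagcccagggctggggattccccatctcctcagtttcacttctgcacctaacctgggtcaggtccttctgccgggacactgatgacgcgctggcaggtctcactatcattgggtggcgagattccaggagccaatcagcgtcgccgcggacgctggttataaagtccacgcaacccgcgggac
A match of these letters is a description and not evidence of a bound factor.

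On the higher side the leading genes were expressed in astrocytes. Fam107a (chromosome 14, 8296274 to 8318023), an actin-bundling protein of astrocytes that stress hormone induces, had 263.8, 301.7 and 361.3 CPM in CON and 316.3, 405.1 and 583.9 CPM in SD. In 9 of the 12 SD libraries it lay above the highest CON library, and within time points the groups overlapped only at CT16, where CON had 323.9 and 347.5 CPM and SD 316.3 and 583.9. The log2 fold change was 0.42 ± 0.07, and 0.44 with the choroid plexus covariate (adjusted p = 0.0141). The library left out had 838.8 CPM.

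Etnppl (chromosome 3, 130617448 to 130637521), an astrocyte enzyme that breaks down phosphoethanolamine, had 11.9, 25.2 and 32.3 CPM in CON and 23.1, 32.5 and 55.1 CPM in SD, a log2 fold change of 0.55 ± 0.09. It varied over the day in CON, from 11.9 and 14.7 CPM at CT12 to 32.3 and 30.7 CPM at CT20, and the SD libraries were above CON at CT4, CT8, CT12 and CT16 and overlapped with it at CT20 and CT24. The transcriptional repressor Bcl6 (chromosome 16, 23965052 to 23988852, overlapped on the opposite strand) had 59.0, 75.7 and 89.3 CPM in CON and 76.4, 87.9 and 111.3 CPM in SD. Its log2 fold change was 0.29 ± 0.07 (adjusted p = 0.438), and 0.35 with the choroid plexus covariate (adjusted p = 0.0141). All 12 SD libraries of Bcl6 lay above the CON median.

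**Figure D2:**
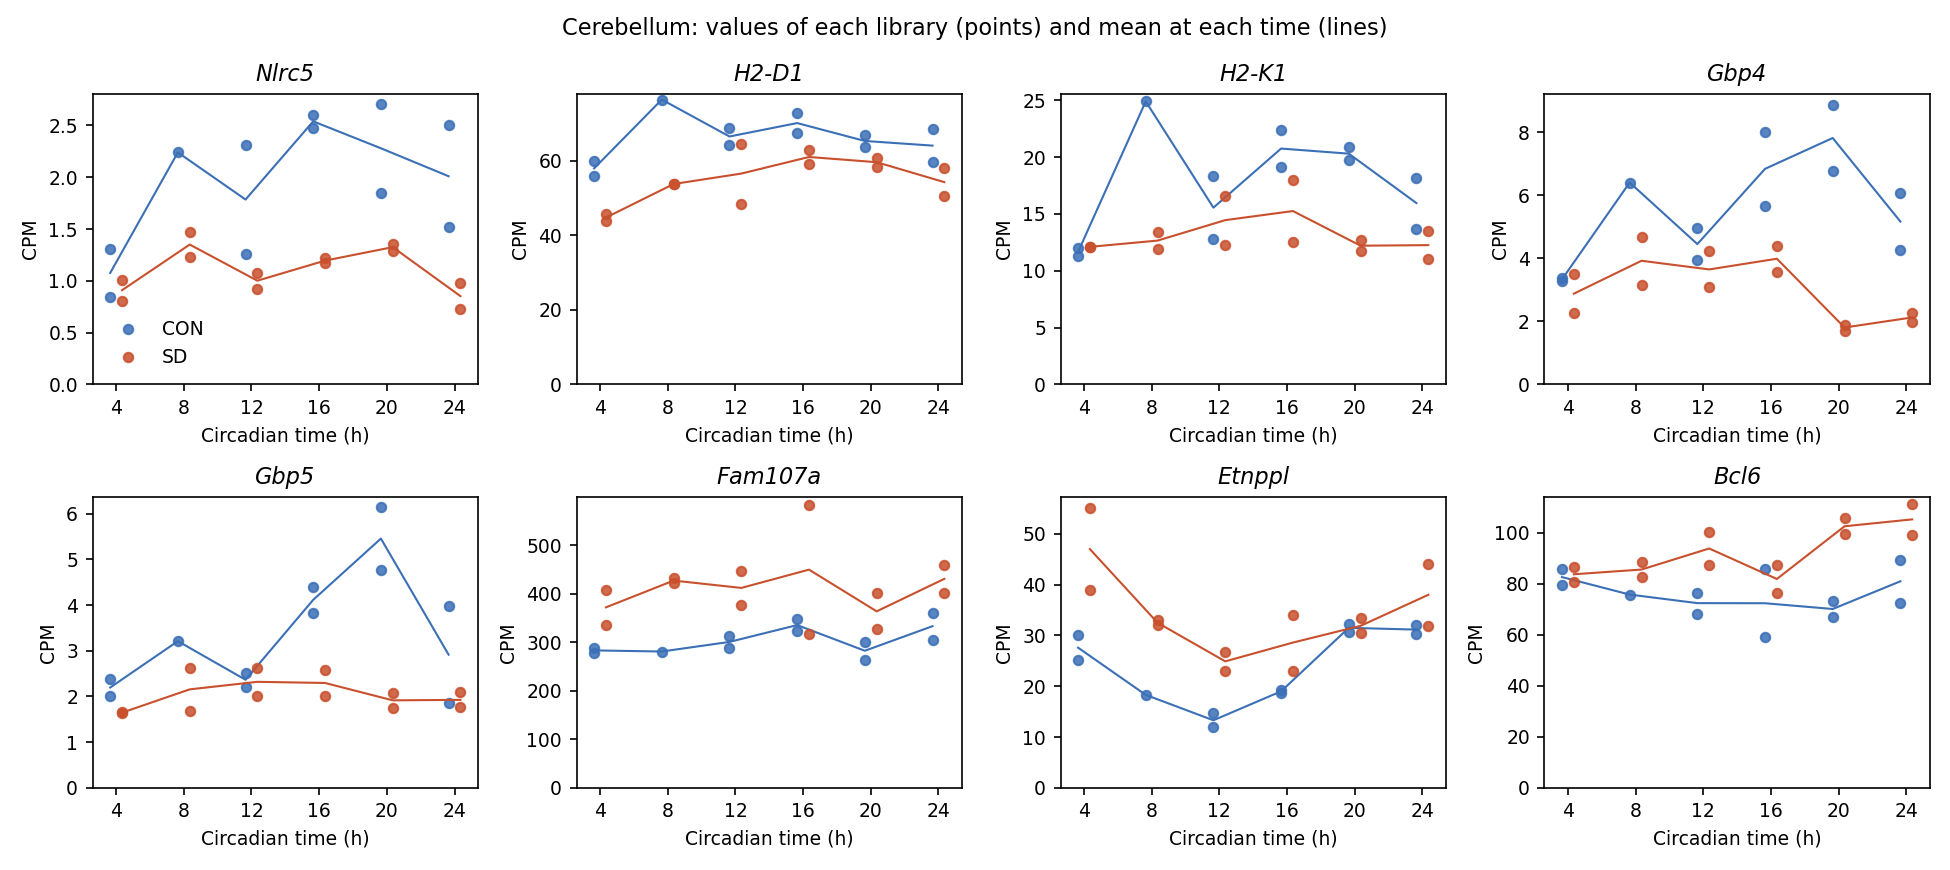
CPM of 8 genes in each cerebellum library (points) and the mean at each circadian time in h (lines), CON in blue and SD in red, with axes from 0. Nlrc5, H2-D1, H2-K1, Gbp4 and Gbp5 were mostly lower in SD from CT8 on, with little distance at CT4 for Nlrc5 and H2-K1, and Fam107a, Etnppl and Bcl6 were mostly higher.

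Fam107a belongs to a list of 25 genes that respond to glucocorticoids, the adrenal stress hormones, and 8 of these had an unadjusted p under 0.05, all 8 higher in SD (32%, beside 2.22% of all genes), with a list median of 0.10. They were the metallothioneins Mt1 (0.25 ± 0.08) and Mt2 (0.29 ± 0.08), which bind zinc, the sulfotransferase Sult1a1 (0.40 ± 0.13), the lipid droplet protein Plin4 (0.31 ± 0.10), the pyruvate dehydrogenase kinase Pdk4 (0.29 ± 0.11), the cell cycle inhibitor Cdkn1a (0.21 ± 0.09), the clock gene Per1 (0.23 ± 0.09) and Fam107a. The receptor chaperone Fkbp5 had 0.19 ± 0.15 and the kinase Sgk1 0.10 ± 0.06. This list was chosen with earlier results of these data known, and Fam107a is counted among the 8. Its share is therefore a description and not a test. Mt1 had 24, 35 and 37.7 CPM in CON and 20.7, 38.5 and 56.0 CPM in SD, and 8 of the 12 SD libraries lay above the highest CON library. Restricted to CT8 to CT20 libraries with Ttr over 50 CPM, 4 of the 25 were higher at an unadjusted p under 0.05 (16%, beside 2.74% of all genes). Choroid plexus markers were lower in SD in those libraries (median -1.04, 12 of 14 at that level). By time point the list median was 0.39 at CT24, where 12 of the 25 were higher at an unadjusted p under 0.05 (beside 6.14% of all genes in either direction), and between -0.05 and 0.09 at the other times. Choroid plexus markers had a median of 4.73 at CT24, with 12 of 14 higher at that level, and their part in this result was not tested.

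The spaced palindrome ACANNNTGT, the core of the element to which the glucocorticoid receptor binds, was searched in the same windows and occurred in 1828 of 27025 genes (6.76%). It was present in 5 of the 21 glucocorticoid genes with a promoter in the table (23.8%), which is 2 of the 8 with an unadjusted p under 0.05 and 3 of the other 13. Because the core is a palindrome, both strands match the same letters. The 2 genes with it were Fam107a, at 1 of its 3 starts (chr14:8309778-8310027, minus strand), and Mt1 (chr8:94178839-94179088, plus strand), shown 5′ to 3′ with the core in capitals, 118 and 92 bases before the start.
Fam107a: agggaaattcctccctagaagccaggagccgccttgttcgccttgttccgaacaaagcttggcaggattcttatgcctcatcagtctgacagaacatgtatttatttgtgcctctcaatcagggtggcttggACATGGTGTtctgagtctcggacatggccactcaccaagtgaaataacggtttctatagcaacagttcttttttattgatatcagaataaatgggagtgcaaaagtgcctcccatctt
Mt1: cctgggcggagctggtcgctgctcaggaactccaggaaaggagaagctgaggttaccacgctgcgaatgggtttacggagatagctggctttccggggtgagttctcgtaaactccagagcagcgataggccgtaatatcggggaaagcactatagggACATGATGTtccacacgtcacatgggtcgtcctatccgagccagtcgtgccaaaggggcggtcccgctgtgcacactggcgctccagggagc
The sequences are from RefSeq, and no binding was measured here.

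The other named genes on the higher side did not pass in edgeR without the choroid plexus covariate either. The hyaluronan-binding protein Itih3 had 19.6, 22.6 and 29.7 CPM in CON and 23.9, 31.4 and 48.6 CPM in SD, with 7 of the 12 SD libraries above the highest CON library and a log2 fold change of 0.39 ± 0.10 (adjusted p = 0.736). The cytoskeletal protein Cald1 (0.16 ± 0.04), the phosphatase Dusp16 (0.13 ± 0.03), the thioesterase Acot11 (0.16 ± 0.04) and Tsga10 (0.14 ± 0.04) differed by small amounts with adjusted p-values of 0.493 to 0.828. Dusp16 passed with the covariate (edgeR adjusted p = 0.0141). The noncoding or unnamed features, Gm17115 (0.31 ± 0.08), Gm45774 (0.32 ± 0.09) and the numbered locus XLOC_081386 (0.40 ± 0.09), completed the 12 with Mt2, whose gene Gm45774 overlaps.

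On the lower side, several structural and signalling genes stood beside the immune genes. The intermediate filament gene Vim, found in astrocytes, ependyma and vessels, had 83.6, 96.1 and 102.4 CPM in CON and 65.7, 77.6 and 105.5 CPM in SD, a log2 fold change of -0.23 ± 0.05 (adjusted p = 0.126), and 8 SD libraries lay below the lowest CON library. The tubulin Tubb2b had 36.9, 41.6 and 44.8 CPM in CON and 28.5, 35.6 and 41.3 CPM in SD (-0.23 ± 0.04, adjusted p = 0.126). The endothelin receptor Ednrb, expressed in Bergmann glia, had 97.5, 106.0 and 119.3 CPM in CON and 82.1, 90.7 and 114.3 CPM in SD (-0.19 ± 0.04, adjusted p = 0.133), with 9 SD libraries below the lowest CON library. These 3 genes passed in DESeq2 (adjusted p = 0.00264, 0.00264 and 0.00599) and had adjusted p-values of 0.0549 to 0.0567 with the choroid plexus covariate. The fibrillar collagen Col27a1 had 10.4, 16.5 and 33.7 CPM in CON and 6.31, 10.4 and 15.4 CPM in SD (-0.65 ± 0.13, adjusted p = 0.175), and the somatostatin receptor Sstr3 13.4, 16.9 and 21.2 CPM in CON and 10.7, 13.7 and 17.4 CPM in SD (-0.30 ± 0.07, adjusted p = 0.405). Col27a1 passed in DESeq2 (adjusted p = 0.0268) and in edgeR with the choroid plexus covariate (adjusted p = 0.0179). Sstr3 passed in DESeq2 (adjusted p = 0.0401) but not in edgeR with the covariate (adjusted p = 0.0629). H2-Q4 (adjusted p = 0.405) was the last of the 12.

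**Figure D3:**
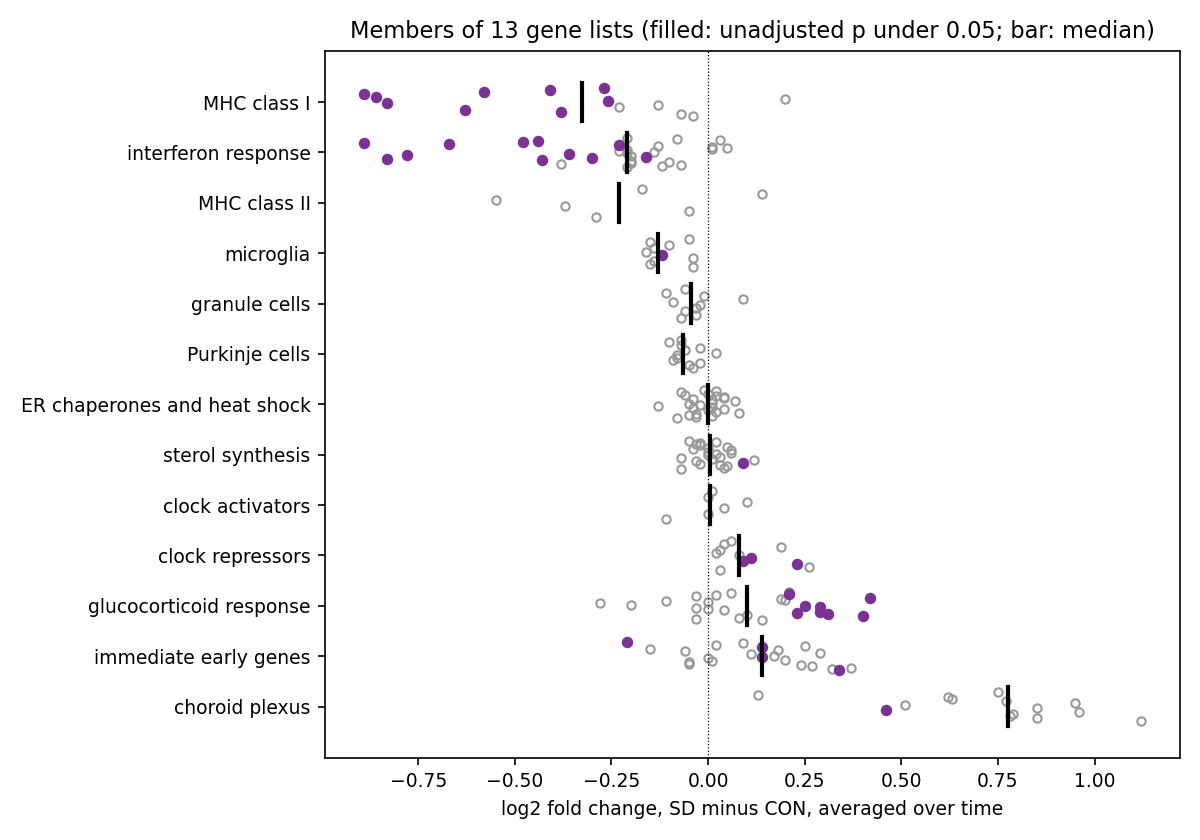
Log2 fold change of SD minus CON, averaged over time, of each tested member of 13 gene lists, filled where the unadjusted p was under 0.05, with the list median as a bar. MHC class I (median -0.32) and interferon genes (-0.21) lay mostly below 0, glucocorticoid genes (0.10) mostly above it, and choroid plexus markers (0.77) were highest with few filled points.

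Among clock genes the repressors, whose products close the feedback loop, all had a log2 fold change above 0 (11 of 11, median 0.08). At an unadjusted p under 0.05, 3 of them were higher (27.3%, beside 2.22% of all genes), namely Per1 (0.23 ± 0.09), Nr1d1 (0.11 ± 0.05) and Nr1d2 (0.09 ± 0.04). Per2 had 0.26 ± 0.14, Ciart 0.19 ± 0.10, Nfil3 0.08 ± 0.06 and Bhlhe40 0.06 ± 0.05. Per2 had 0.14 without CON replicate 2 of CT8 and 0.35 without CON replicate 2 of CT16, so that 1 library moved it by more than 1.5 times. Bhlhe41 (0.04 ± 0.04), Cry1 (0.03 ± 0.05), Per3 (0.03 ± 0.07) and Cry2 (0.02 ± 0.03) were closest to 0. The 6 activators had a median of 0.01 with 0 at an unadjusted p under 0.05, with Arntl (Bmal1) at 0.01 ± 0.07, Clock at 0.00 ± 0.03, Npas2 at 0.10 ± 0.11, Rora at 0.04 ± 0.07 and Rorb at 0.00 ± 0.05. The output factors Tef and Hlf both had 0.05.

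The averages hid opposite signs at different times. At CT8 Per2, the light- and stress-responsive repressor, had 30.4 CPM in the CON library (25.4 in the library left out) and 79.9 and 80.9 CPM in SD, a log2 fold change of 1.41 ± 0.25 (edgeR adjusted p = 0.591). At CT16 it had 53.3 and 84.1 CPM in CON and 49.7 and 50.5 CPM in SD. Per1 at CT8 had 42.3 CPM in CON and 65.1 and 75.1 CPM in SD (0.74 ± 0.16, adjusted p = 0.998). For the 11 repressors the median was 0.29 at CT8, with 8 higher at an unadjusted p under 0.05 (beside 3.82% of all genes), and -0.20 at CT16, with 6 lower (beside 4.56%). The CT8 values rest on a single CON library.

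A difference in the 24 h rhythm was tested by the cosine and sine terms of each condition, and 0 of 22010 genes passed in edgeR (0%), with 2284 (10.4%) at an unadjusted p under 0.05. The fitted log2 amplitude was 0.94 in CON and 0.64 in SD for Per2, 0.89 and 0.60 for Ciart, 0.59 and 0.45 for Arntl, 0.38 and 0.25 for Nr1d1, 0.44 and 0.16 for Per3 and 0.30 and 0.15 for Hlf. The fitted peak was at 8.8 h in CON and 11.1 h in SD for Arntl, at 9.2 and 11.3 h for Clock, at 17.3 and 19.0 h for Nr1d1 and at 19.6 and 21.7 h for Ciart, none of which passed (adjusted p = 0.301, 0.439, 0.304 and 0.301). Per1 had amplitudes of 0.37 and 0.38 and peaks at 22.5 and 23.2 h. The adjusted p-values of the other clock genes ran from 0.301 for Hlf and 0.331 for Per3 to 0.986 for Rora. Outside the clock, the gene of smallest p was the collagen galactosyltransferase Colgalt2 (adjusted p = 0.0595), with amplitudes of 0.48 and 0.26 and peaks at 16.7 and 3.1 h. Tgm5, Plppr5, Islr2 and Slc7a2 followed with an adjusted p of 0.301 each.

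**Figure D4:**
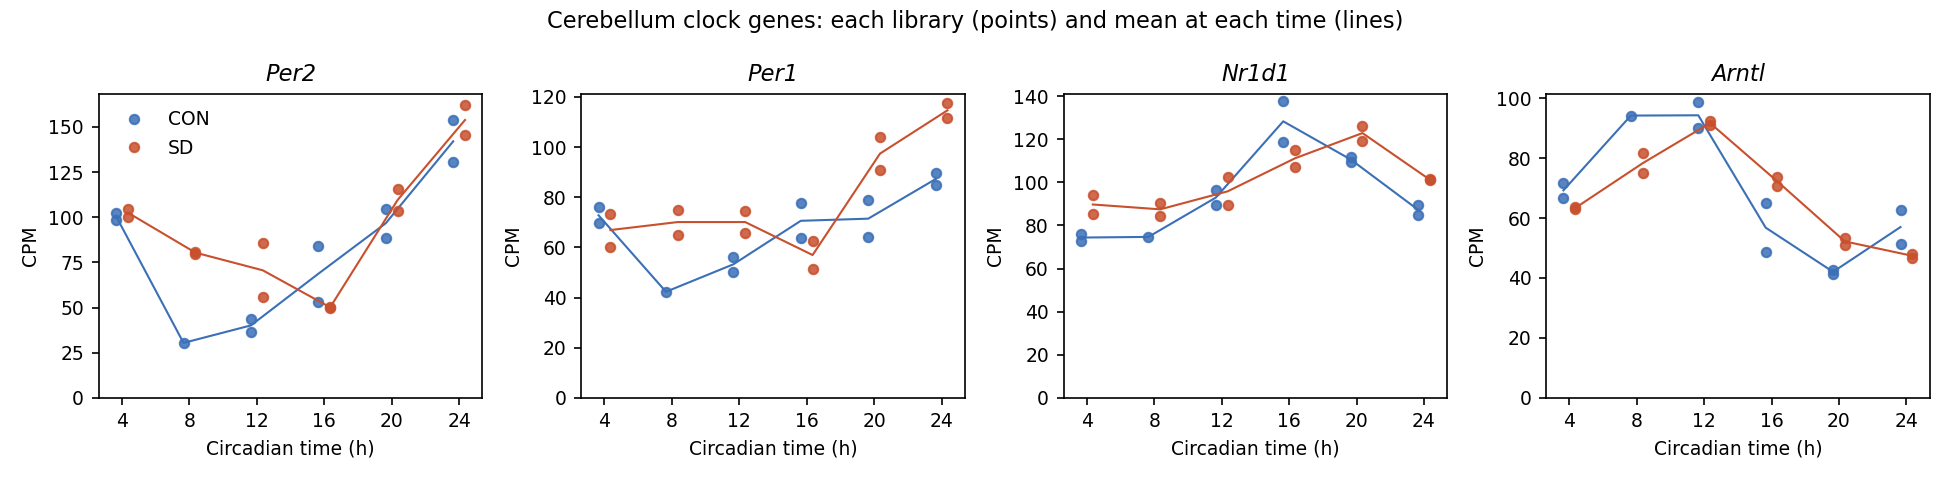
CPM of 4 clock genes in each cerebellum library (points) and the mean at each circadian time in h (lines), CON in blue and SD in red, with axes from 0. Per2 and Per1 were higher in SD at CT8, where CON has 1 library, and Arntl was lower in SD at CT8 and higher at CT20.

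Immediate early genes, which neuronal firing induces within minutes, had a median of 0.14 over 22 tested genes. At an unadjusted p under 0.05, 3 were higher (13.6%, beside 2.22% of all genes) and 1 lower (4.55%, beside 2.29%). The kinase Sik1 had 6.25, 9.54 and 13.5 CPM in CON and 7.29, 11.7 and 16.9 CPM in SD (0.34 ± 0.12). The synaptic scaffold Homer1, a classical transcript of wakefulness, had 142.6, 168.4 and 185.8 CPM in CON and 158.6, 176.7 and 210.7 CPM in SD (0.14 ± 0.06), and the phosphatase Dusp6 had 0.14 ± 0.07. The dendritic protein Arc went the other way, with 10.9, 14.1 and 18.8 CPM in CON and 9.04, 12.3 and 18.2 CPM in SD (-0.21 ± 0.08). With the choroid plexus covariate 8 were higher (beside 4.83% of all genes) and 2 lower (beside 3.23%). Without the CT4 libraries 7 were higher (beside 2.82%) and 1 lower (beside 2.60%). At CT20 the list median was 0.52 and 9 of 22 were higher at an unadjusted p under 0.05 (beside 11.9% of all genes in either direction), with Fos at 1.57, Fosb at 1.62, Nr4a1 at 1.39, Nr4a3 at 1.67 and Npas4 at 1.39, against a median of -0.22 at CT4. No member passed after adjustment at either time. At CT20 choroid plexus markers had a median of -3.67 (12 of 14 lower at that level), oligodendrocyte markers -0.69 (9 of 11) and microglia markers -0.58 (4 of 10), and their part in the immediate early values was not tested.

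Glial genes gave mixed values on average. Of 13 astrocyte and Bergmann glia markers, with a median of 0.00, the Bergmann glia gene Gdf10 (0.17 ± 0.05) and angiotensinogen, Agt (0.19 ± 0.06), were higher at an unadjusted p under 0.05, and Hopx (-0.19 ± 0.05), the lipid-binding protein Fabp7 (-0.32 ± 0.11) and the water channel Aqp4 (-0.14 ± 0.06) were lower. That is 15.4% higher and 23.1% lower, beside 2.22% and 2.29% of all genes. The glutamate transporters Slc1a2 (0.03 ± 0.05) and Slc1a3 (-0.01 ± 0.05) and the gap junction gene Gja1 (0.00 ± 0.04) were near 0. Markers of oligodendrocytes (median -0.07, 11 tested), their precursors (-0.07, 6 tested) and endothelial and mural cells (-0.03, 12 tested) had 0 genes at an unadjusted p under 0.05 on average. At CT20, however, oligodendrocyte markers had a median of -0.69 with 9 of 11 lower at that level, and their precursors -0.46 with 3 of 6 lower (beside 11.9% of all genes in either direction), while 0 passed after adjustment. The summed astrocyte and Bergmann glia level was 3059.8 to 3512.3 CPM in CON and 2852.6 to 3578.4 CPM in SD.

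Neuronal identity genes were near 0 on average but not at CT4. Granule cell markers had a median of -0.04 (10 tested), Purkinje cell markers -0.07 (12 tested) and cerebellar interneuron markers -0.03 (10 tested), with 0 at an unadjusted p under 0.05 in each list of the averaged comparison. At CT4 granule cell markers had a median of -0.35 with 8 of 10 lower at that level, and Purkinje cell markers -0.30 with 8 of 12 lower and 1 higher (beside 13.3% of all genes in either direction), of which 1, the glutamate transporter Slc1a6, fell after adjustment. Choroid plexus RNA was present in the SD and not the CON libraries of that time. With the choroid plexus covariate the CT4 medians were -0.51 for granule cell and -0.41 for Purkinje cell markers. In this contrast choroid plexus RNA and SD cannot be told apart. Summed granule cell markers at CT4 were 6610.6 and 6526.8 CPM in CON and 5909.4 and 4603.6 CPM in SD. The 4 markers of unipolar brush cells, excitatory interneurons of the granular layer, had a median of 0.39, of which Otx2 (0.46 ± 0.16), also a choroid plexus gene, had an unadjusted p under 0.05 and Eomes 0.31 ± 0.17. Their median with the choroid plexus covariate was 0.22. Receptors for GABA and glycine (median 0.00, 19 tested), for glutamate (-0.01, 25 tested) and for sleep-wake neuromodulators (0.06, 31 tested) and voltage-gated sodium and calcium channels (-0.01, 23 tested) gave 0, 1, 0 and 1 lower and 0 higher genes at that level. Of all genes 2.29% were lower and 2.22% higher in the averaged comparison.

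Housekeeping and stress lists were also near 0 on average. Endoplasmic reticulum chaperones and heat shock genes had a median of 0.00 with 0 of 26 at an unadjusted p under 0.05, cold-inducible RNA-binding genes -0.04 (3 tested, 0), sterol synthesis genes 0.00 (24 tested, 1 higher), mitochondrially encoded mRNAs -0.01 (2 tested, 0), cytosolic ribosomal proteins -0.01 (72 tested, 1 lower), nuclear respiratory chain genes -0.01 (75 tested, 1 lower) and replication and mitosis genes 0.01 (19 tested, 2 lower). Glycolysis and glucose transport genes had a median of -0.01 over 23, with 3 higher, namely Gapdh (0.55 ± 0.17), Pfkm (0.06 ± 0.03) and Aldoc (0.20 ± 0.06), the aldolase of astrocytes and of stripes of Purkinje cells. Erythroid markers had a median of 0.14 (4 tested, 1 higher), meningeal markers 0.07 (12 tested, 0), forebrain neuron markers 0.07 (9 tested, 0), brainstem and midbrain markers -0.05 (4 tested, 1 lower) and hepatocyte and kidney markers 0.01 (3 tested, 0). Choroid plexus markers had the highest median of these lists, 0.77 over 14 genes, with 1 at an unadjusted p under 0.05. Of all genes 2.22% were higher and 2.29% lower at that level.

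At CT24 the chaperone list stood apart from its average, with a median of 0.21 and 13 of 26 genes higher at an unadjusted p under 0.05 (beside 6.14% of all genes in either direction). Hspa5, the luminal chaperone that restrains the unfolded protein response, had 171.2 and 184.8 CPM in CON and 259.8 and 248.2 CPM in SD, a log2 fold change of 0.51 ± 0.10 (adjusted p = 0.653). Sdf2l1 (0.58), Creld2 (0.47) and Pdia6 (0.41) were higher as well, and at the other times the list median was between -0.12 and 0.06. Both SD libraries of CT24 held choroid plexus RNA and neither CON library did, and with the covariate the log2 fold change of Hspa5 was 0.45 (adjusted p = 0.507).

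Single time points were then tested in a fit with a mean for each group. CT4 gave 353 genes (1.6%), of which 332 rose and 21 fell in SD, CT20 gave 1 (0.00454%), and CT8, CT12, CT16 and CT24 gave 0 (0%), where 840 (3.82%), 1292 (5.87%), 1004 (4.56%) and 1351 genes (6.14%) had an unadjusted p under 0.05, against 2927 (13.3%) at CT4. The 5 genes of smallest p at CT4 had an adjusted p of 0.00494 each. Fzd4, a receptor for Wnt and norrin, had 14.6 and 14.3 CPM in CON and 41.0 and 30.3 CPM in SD (1.27 ± 0.18), and the RhoGAP gene Arhgap18 had 2.78 and 3.31 CPM in CON and 7.23 and 8.69 CPM in SD (1.35 ± 0.19). Stard13 (0.85 ± 0.11), Rai14 (1.02 ± 0.14) and the choline dehydrogenase Chdh (0.80 ± 0.10) completed the 5.

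The CT4 contrast set 2 CON libraries without choroid plexus RNA against 2 SD libraries with it. Of the choroid plexus markers 7 were among the 332, namely Kl, Kcnj13, Clic6, Prlr, Slc4a5, F5 and Calml4, and the median of all 14 tested markers was 6.61. After adding the covariate 0 genes passed at CT4 (0%), and the median log2 fold change of the 332 went from 1.19 to 0.63. The fold change was smaller in size with the covariate in 307 of the 353 genes. Rai14 had 0.99 with the covariate and Chdh 0.80, against 1.02 and 0.80 without it, while Fzd4 went from 1.27 to 0.80. In this contrast the choroid plexus RNA and sleep deprivation cannot be told apart. Without CON replicate 1 of CT4 the count was 1, without CON replicate 2 it was 6 and without SD replicate 1 it was 606.

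**Figure D5:**
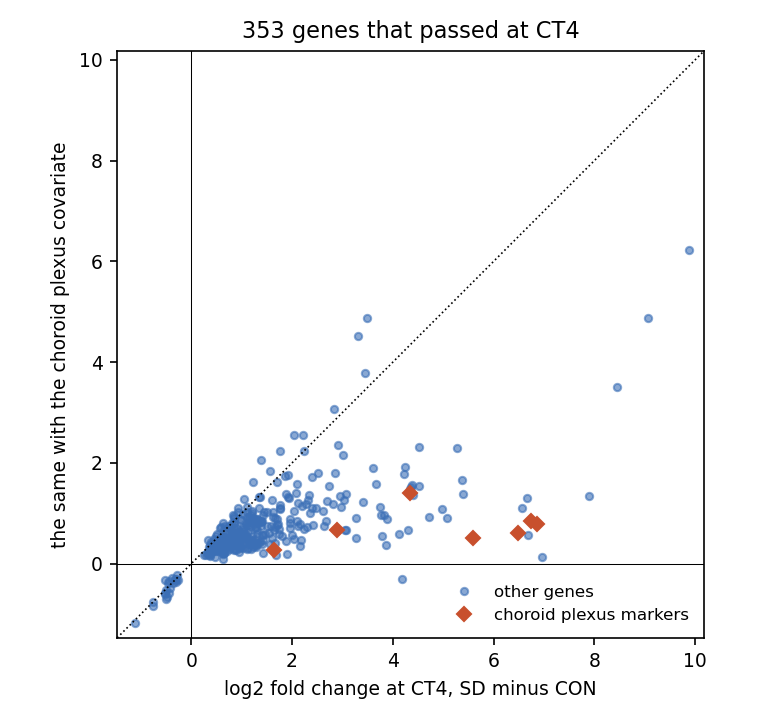
Log2 fold change of SD minus CON at CT4 of the 353 genes that passed there (horizontal axis) against the same with the choroid plexus covariate (vertical axis), with 7 choroid plexus markers as red diamonds and the line of equality dotted. The fold change was smaller in size with the covariate in 307 of the 353 genes.

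The gene that passed at CT20 was Gbp4, with 6.77 and 8.88 CPM in CON and 1.9 and 1.71 CPM in SD, a log2 fold change of -2.07 ± 0.28 (edgeR adjusted p = 0.0180). With the covariate the log2 fold change was -2.02 (adjusted p = 0.223). Of the 30 tested interferon genes 12 were lower at CT20 at an unadjusted p under 0.05, with a list median of -0.49, beside 11.9% of all genes in either direction, and 4 of 10 microglia markers were lower at that time (median -0.58). The interferon median was 0.15 at CT4, -0.23 at CT8, -0.15 at CT12, -0.28 at CT16 and -0.34 at CT24, and that of class I genes ran from -0.08 at CT4 through -0.63 at CT8 to -0.21 at CT24. The CT8 medians rest on a single CON library. The CON library left out had 7.03 CPM of H2-K1, 0.969 of Nlrc5 and 3.03 of Gbp4, below both SD libraries of CT8. Its H2-Q4 value of 2.18 CPM was above both. At CT4 1 interferon gene, Ifi27, rose. The growth factor receptor Fgfr2 (-0.44 ± 0.07), the phosphatase Dusp5 (0.65 ± 0.11), the MYC antagonist Mxi1 (0.55 ± 0.09) and Gm3294 (0.93 ± 0.16) came next at CT20 with an adjusted p of 0.0716 each.

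At the remaining times, of which CT8 has a single CON library, the genes of smallest p did not pass. At CT8, after Per2 and Per1, these were Gm15920, Borcs5 (0.77 ± 0.17) and H2-K1 (-0.97 ± 0.22), each with an adjusted p of 0.998. At CT12 the membrane protein Tmem132c had 77.5 and 87.7 CPM in CON and 126.2 and 171.3 CPM in SD (0.85 ± 0.14, adjusted p = 0.221), and its antisense partner Tmem132cos had 0.94 ± 0.19. The ubiquitin ligase Rnf144b (0.57 ± 0.10), the adhesion gene Nectin3 (0.42 ± 0.08) and the phosphatase Ptprt (-1.55 ± 0.31) were the others at CT12. At CT16 these were Gm28661 (adjusted p = 0.155), Gapdh, 4931422A03Rik, Dnase2a and Gkn3, and at CT24, besides Hspa5, they were Gbp4 (-1.28 ± 0.27), Sept9 (0.86 ± 0.19), the stem cell receptor Lgr5 (0.44 ± 0.10) and the thioredoxin inhibitor Txnip (0.95 ± 0.22), each with an adjusted p of 0.653. Txnip had 10.4 and 11.1 CPM in CON at CT24 and 17.9 and 23.6 CPM in SD.

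The 6 time points tested together gave 30 genes (0.136%), and the test of whether the SD effect differed between times gave 48 (0.218%). The 5 genes of smallest p in the joint test were Sept9, Gbp4, the peptidase Mme, Stard13 and the teneurin Tenm4 (adjusted p = 0.0323 each), and those of the interaction were Sept9, Mme, Tenm4, Arhgap18 and Stard13 (adjusted p = 0.0303 each). Mme had 1.13 and 0.769 CPM in CON and 5.48 and 5.78 CPM in SD at CT4, and the order was opposite at CT20, with 3.03 and 2.98 CPM in CON and 1 and 0.455 CPM in SD, as for Ttr. With the choroid plexus covariate 4 genes (0.0182%) passed the joint test, Gbp4 among them (adjusted p = 0.0368), and 0 the interaction.

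To place the cerebellum response beside that of other organs, the SD effect was compared with that of the forebrain and liver of the same series. Whether libraries of different organs came from the same mice is not stated for this experiment in the sources used here. The fit had no term for the animal and treated all libraries as independent. The organs are therefore not known to be independent of each other. Against the forebrain 0 of 24064 genes differed (0%), with 977 at an unadjusted p under 0.05 (4.06%). In the forebrain Nlrc5 had -0.98 ± 0.15, H2-D1 -0.47 ± 0.07, H2-K1 -0.61 ± 0.07 and Gbp4 -1.02 ± 0.16, all 4 past the forebrain's own test (adjusted p = 0.0104, 0.0104, 0.00163 and 0.0161). The cerebellum minus forebrain difference was 0.15 ± 0.20 for Nlrc5, 0.20 ± 0.09 for H2-D1, 0.20 ± 0.12 for H2-K1 and 0.12 ± 0.24 for Gbp4 (adjusted p = 1 each). Of 14 class I genes 5 fell in the forebrain (35.7%, beside 0.0303% of all genes). At an unadjusted p under 0.05, 3 of 9 other leukocyte markers (33.3%) and 2 of 10 microglia markers (20%) were lower there. So were 5 of 12 meningeal markers (41.7%) and 0 of 8 class II genes, beside 3.48% of all genes. Their part in the forebrain values was not tested. Fam107a had 0.25 ± 0.07 and Etnppl 0.42 ± 0.25 there, neither past the test. The genes of smallest p for the difference were C130046K22Rik (-0.30 ± 0.07), Sstr3 (-0.43 ± 0.11), Col27a1 (-0.61 ± 0.16), Zfp763 (0.22 ± 0.06) and Gm11767 (-0.43 ± 0.11), each with an adjusted p of 1.

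The liver differed from the cerebellum in 1354 of 24675 genes (5.49%), with 4897 (19.8%) at an unadjusted p under 0.05. The 5 of smallest p were the glutathione transferase Gstm1 (difference 1.6 ± 0.21), Plek (0.85 ± 0.11), Ksr2 (0.77 ± 0.10), Rap1gap2 (0.77 ± 0.10) and Myo9a (0.46 ± 0.06), and all 5 fell in the liver, with log2 fold changes of -1.50, -0.80, -0.78, -0.74 and -0.44, while the cerebellum values were 0.11, 0.07, 0.01, 0.05 and 0.03. Aqp4 also differed, at -0.14 ± 0.06 in the cerebellum and 0.88 ± 0.13 in the liver (difference -1.04 ± 0.15, adjusted p = 3.38e-05). In the liver 20 of 32 interferon genes (62.5%) and 12 of 15 class I genes (80%) fell, beside 8.8% of all genes. Markers of immune cells fell there as well, in 11 of 13 other leukocyte genes (84.6%), 6 of 10 microglia and macrophage genes (60%) and 8 of 8 class II genes (100%), and their part in the liver values was not tested. The differences of Nlrc5 (-0.40 ± 0.15, adjusted p = 0.102), Gbp4 (0.28 ± 0.22, adjusted p = 0.545) and H2-D1 (0.00 ± 0.09, adjusted p = 1) between cerebellum and liver did not pass. Replication and mitosis genes, of which 18 of 21 fell in the liver (85.7%), had 2 of 19 lower at an unadjusted p under 0.05 in the cerebellum (10.5%, beside 2.29% of all genes).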

How the data were processed

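Total RNA depleted of ribosomal RNA was sequenced as stranded read pairs. The authors deposited unnormalised counts of read pairs per gene. Per the submitters' processing notes and methods, the authors trimmed reads with Trim Galore, aligned them to GRCm38 with HISAT2, filtered them by mapping quality with SAMtools and counted reverse-stranded pairs with featureCounts. Reads shared by near-identical genes are removed by that filter. The table held 54833 features in 96 libraries, its counts were the same as in the 96 single files, and 0 columns were not used. Of the features, 49585 had Ensembl identifiers (49326 matched to a symbol of a GRCm38 annotation) and 5248 were numbered loci of no named gene. Depth in the cerebellum was 26 to 30.9 M counts, and intervals and p-values cover no error beyond these libraries.

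Genes were kept where at least 2 libraries reached the CPM equal to 10 counts and the total was at least 15. Counts were scaled by TMM and tested with the quasi-likelihood test of edgeR 4.0.16 (limma 3.58.1, R 4.3.3), with Benjamini-Hochberg adjustment over all genes tested and a threshold of 0.05. The averaged comparison had time point as an additive factor, single times and the joint and interaction tests used 1 mean per group, and the rhythm test used a 24 h cosine and sine per condition. Fold changes are fitted log2 differences of SD minus CON, with SE. Single library measures were compared by an exact two-sided permutation test within time points. CPM and ranges were computed in R, and the permutation tests, motif searches and figures in Python 3.11.15 (numpy 2.4.6, pandas 2.3.3, matplotlib 3.10.9). The promoters were the stretches of RefSeq gene starts on GRCm38.p6.

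The named genes were the 12 of smallest p in each direction with a mean of at least 1 CPM and the same sign at 5 or more of the 6 times, 5 genes for each other test, all clock genes and members of lists, of which a few are not reported here. The gene lists and the members were chosen with earlier results of these data known. Alternatives were DESeq2 1.42.0, median-ratio scaling, library sizes alone, other filters, the CT8 library kept, a replicate block and each library left out. The choroid plexus covariate, the fit without CT4 and the fit restricted to libraries with Ttr over 50 CPM were added after the data had been seen. In simulated data with 200 changed genes, the averaged test recovered 56.7% of changes of 1.25-fold and 92.5% of 1.5-fold (21599 genes), and the CT4 test recovered 35.8% of 1.5-fold and 77.3% of 2-fold changes (21612 genes). There were 9 and 4 false calls. The changed genes had at least 1 CPM, and the spread was that within groups of the same condition and time. Differences of choroid plexus RNA between groups were not simulated, so recovery in the real data can be lower, above all in the averaged test.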

Additional observations from a re-analysis of the deposited data

Results flagged for a closer look

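The SD effect differed between the 6 time points in 48 genes of 22010, with an interaction adjusted p of 0.0303 for each of Sept9, Mme, Tenm4, Arhgap18 and Stard13 (edgeR). Sept9 had 4.57 and 5.42 CPM in CON and 12.3 and 13 CPM in SD at CT4, and 9.37 and 7.48 CPM in CON and 4.15 and 3.85 CPM in SD at CT20. Tenm4 had 59.2 and 58.5 CPM in CON and 99.1 and 128.5 CPM in SD at CT4, and 95.8 and 86.9 CPM in CON and 54.0 and 55.3 CPM in SD at CT20. With the choroid plexus covariate 0 genes passed the interaction.

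The SD effect differed between cerebellum and liver in 1354 genes, with a cerebellum minus liver log2 difference of 0.85 for Plek, 0.77 for Ksr2, 1.6 for Gstm1, 0.77 for Rap1gap2 and 0.46 for Myo9a.

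In the library left out of all comparisons, CT8 CON replicate 1, the antisense share was 22.2%, against at most 5.78% in the other CON libraries.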

How the results depend on the processing

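Averaged over time, the 0 calls became 4 with median-ratio scaling, 4 with the filter over 11 libraries, 272 with no filter on low counts, 17 with the choroid plexus covariate and 14 with DESeq2, and 0 to 5 with 1 library left out (5 without CON replicate 1 of CT24). With no filter the calls were 1472 at CT4, 197 at CT8, 294 at CT12, 111 at CT16, 1101 at CT20, 290 at CT24, 2247 for any time, 2098 for the interaction and 1543 for rhythm. With the CT8 library kept they were 0 at CT4, 2281 at CT8, 0 at CT20, 0 for any time, 0 for the interaction and 611 against the liver. With the choroid plexus covariate they were 0 at CT4, 0 at CT20, 1 at CT24, 4 for any time and 0 for the interaction. DESeq2 gave 3 at CT8, 19 at CT12, 129 at CT20, 1 at CT24 and 574 for any time. Library sizes alone gave 22 for the interaction and median-ratio scaling 1 for rhythm. Leaving out 1 library gave 1 to 606 at CT4, 0 to 9 at CT12, 0 to 1 at CT16, 1 to 10 at CT20, 0 to 259 for any time (259 without SD replicate 1 of CT12), 0 to 264 for the interaction (264 without the same library) and 0 to 7 for rhythm. The cause was not tested for any of these. Without CON replicate 2 of CT8 no value could be had at CT8, for any time or for the interaction.

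With a replicate block the calls were 2 at CT8, 2 at CT20, 77 for any time, 109 for the interaction and 1 for rhythm, and 0 for the averaged comparison. The differences between replicates 1 and 2 correlated between conditions by 0.14, -0.47, 0.12, 0.23 and 0.04 at CT4, CT12, CT16, CT20 and CT24. These values cannot tell whether the numbers pair the libraries, because choroid plexus RNA also differed between replicates. At CT12 the marker sums of replicates 1 and 2 were 91.0 and 823.9 CPM in CON and 1561.1 and 107.8 CPM in SD.

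Interferon genes lower in SD went from 11 to 18 without CT4, and glucocorticoid genes higher from 8 to 4 in CT8 to CT20 libraries with Ttr over 50 CPM. Gm17115 was -0.29 with the CT8 library kept, Ciart -0.02 in the libraries with Ttr over 50 CPM, and the residual ribosomal share differed by 0.00845 percentage points without CT8, each of opposite sign. Over 105 gene results, 3091 of 3385 alternative values kept their direction and side of the threshold. Of the rest 147 newly passed, 145 no longer passed and 2 reversed, of which 0 on leaving out 1 library. A result that passed in neither fit counts among the 3091, so they do not show how often a passing result was kept. Every gene named for the joint test and for the interaction no longer passed in some fits with 1 library left out. In simulated data at this depth, the smallest changes at a single time were mostly not recovered.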

Other observations

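Gapdh, the glycolytic enzyme, had 16.5 to 20.7 CPM in the 11 CON libraries. Among the SD libraries it had 81.5 and 40.3 CPM at CT16 and 45.7 CPM in replicate 2 of CT12, and 18.0 to 24.7 CPM in the others. Gapdh has many processed pseudogenes with which reads can be shared, so its counts are uncertain. The CT16 log2 fold change was 1.65 ± 0.31 (edgeR adjusted p = 0.567).

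Several genes passed the averaged test only with the choroid plexus covariate among the fits compared here, which were edgeR without it and DESeq2. These included Frmd6 (0.31 ± 0.04, adjusted p = 0.00291), the ETS factor Etv5 (0.42 ± 0.07, adjusted p = 0.0141) and the corticotropin-releasing hormone receptor Crhr1 (0.18 ± 0.03, adjusted p = 0.0162), which without it had 0.18, 0.29 and 0.09 with an adjusted p of 0.997 each.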
